A study of Mus musculus with 54 samples.

Results

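The genes described here were the transcription factor gene Nfe2l2, which encodes NRF2, its repressor gene Keap1, 6 classical NRF2 target genes (Nqo1, Gclc, Gclm, Hmox1, Txnrd1 and Srxn1) and the metallothionein genes Mt1 and Mt2. They were chosen by symbol, and all 10 were found among the 20162 rows of the liver expression table. The series measured the liver transcriptome (medial lobe) in 54 wild-type C57BL/6J males. All mice, controls included, were single-housed and ate a high-fat diet from 8 weeks of age. Di-isononyl phthalate (DINP), a plasticizer, was given by mouth in gelatin pellets every day for 20 weeks. A low dose of 1.5 (n = 13), a middle dose of 15 (n = 13) and a high dose of 150 (n = 14) mg per kg of body weight per day were given, and 14 control mice received placebo pellets. The DINP groups were thus a model of DINP exposure on top of diet-induced obesity in males, and the controls of the obesity alone. A group of lean mice or females was not analysed here.

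NRF2 is held in the cytosol and led to degradation by KEAP1, a sensor protein whose reactive cysteines are modified by electrophiles and oxidants. Once freed, NRF2 moves to the nucleus, binds antioxidant response elements (AREs) together with small MAF proteins and raises genes for glutathione synthesis, thioredoxin reduction, quinone detoxification and heme breakdown. Metallothioneins are small cysteine-rich proteins that bind zinc and copper; their genes respond to metals through the factor MTF1 at metal response elements (MREs), and in liver also to glucocorticoids, inflammation and oxidative stress.

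Mt1 and Mt2 are shown as sequence because they varied together from mouse to mouse and lie side by side on chromosome 8. In GENCODE M21 on GRCm38, Mt2 spans chr8:94172664-94173568 and Mt1 spans chr8:94179082-94180327, both on the plus strand and 5513 bases apart. The windows below run from 250 bases before to 30 bases after the start site that RefSeq annotates on GRCm38.p6, at chr8:94178839-94179118 for Mt1 and at chr8:94172368-94172647 for Mt2. They are written 5′ to 3′ with the cores of MREs in capitals.
Mt1: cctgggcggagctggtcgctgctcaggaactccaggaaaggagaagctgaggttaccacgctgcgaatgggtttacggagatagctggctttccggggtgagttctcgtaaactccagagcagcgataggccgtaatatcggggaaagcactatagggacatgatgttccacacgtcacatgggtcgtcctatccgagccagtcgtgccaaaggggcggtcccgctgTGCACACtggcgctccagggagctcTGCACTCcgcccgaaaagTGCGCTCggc
Mt2: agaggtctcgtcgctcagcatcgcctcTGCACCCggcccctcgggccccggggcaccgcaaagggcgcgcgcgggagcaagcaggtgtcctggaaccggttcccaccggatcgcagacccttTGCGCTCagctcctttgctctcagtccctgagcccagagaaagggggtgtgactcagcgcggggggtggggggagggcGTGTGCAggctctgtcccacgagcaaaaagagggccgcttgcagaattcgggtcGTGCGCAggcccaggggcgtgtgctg
The core was searched on both strands as TGCACNC or TGCGCNC, where N is any base. Of 32851 promoter windows of 300 bases in the RefSeq table, 25.7% held at least 1 such core and 1.97% held 3 or more. The full window of Mt2 held 4 cores and that of Mt1 held 3. Windows were listed for 8 of the 10 genes, and among the others Gclm held 3 cores, Srxn1 held 1, and Nfe2l2, Keap1, Nqo1 and Txnrd1 held none. The ARE core, searched as TGACNNNGC on both strands, was found once each in the windows of Nfe2l2, Gclm, Srxn1 and Mt2 and in 1 of the 3 windows of Txnrd1, against 12.4% of all windows; in Gclm it overlapped an MRE core. These matches describe letters in a short window only.

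Expression is given below as scaled TPM, since the values had the form of TPM (transcript abundance normalised for length and library size) rounded to whole numbers and divided by a size factor for each library. Each gene was compared with itself across groups, on the scale of log2(value + 1), with limma over all 11431 rows with a mean of at least 1, and a gene was called at an adjusted p under 0.05. Liver identity was clear from the hepatocyte markers, which summed to between 23883 and 51235 in each mouse, whereas 4 of the 6 adipocyte markers (Adipoq, Lep, Plin1 and Retn) had a median of 0 in every group. The other two, Cfd and Car3, brought the sum of the 6 to group medians of 2263 to 2947, and Cfd, the gene of adipsin, rose at the high dose (log2 fold change 2.07, adjusted p = 0.00335). In 5 libraries the median correlation with the other libraries (0.9105 to 0.9355) was below the lower fence of 0.94: replicates 5, 6, 7 and 8 at the middle dose and replicate 8 of the controls. The other 49 libraries were at 0.941 to 0.962. Calls against control that changed without these 5 libraries are therefore given beside the results.

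**Figure D1:**
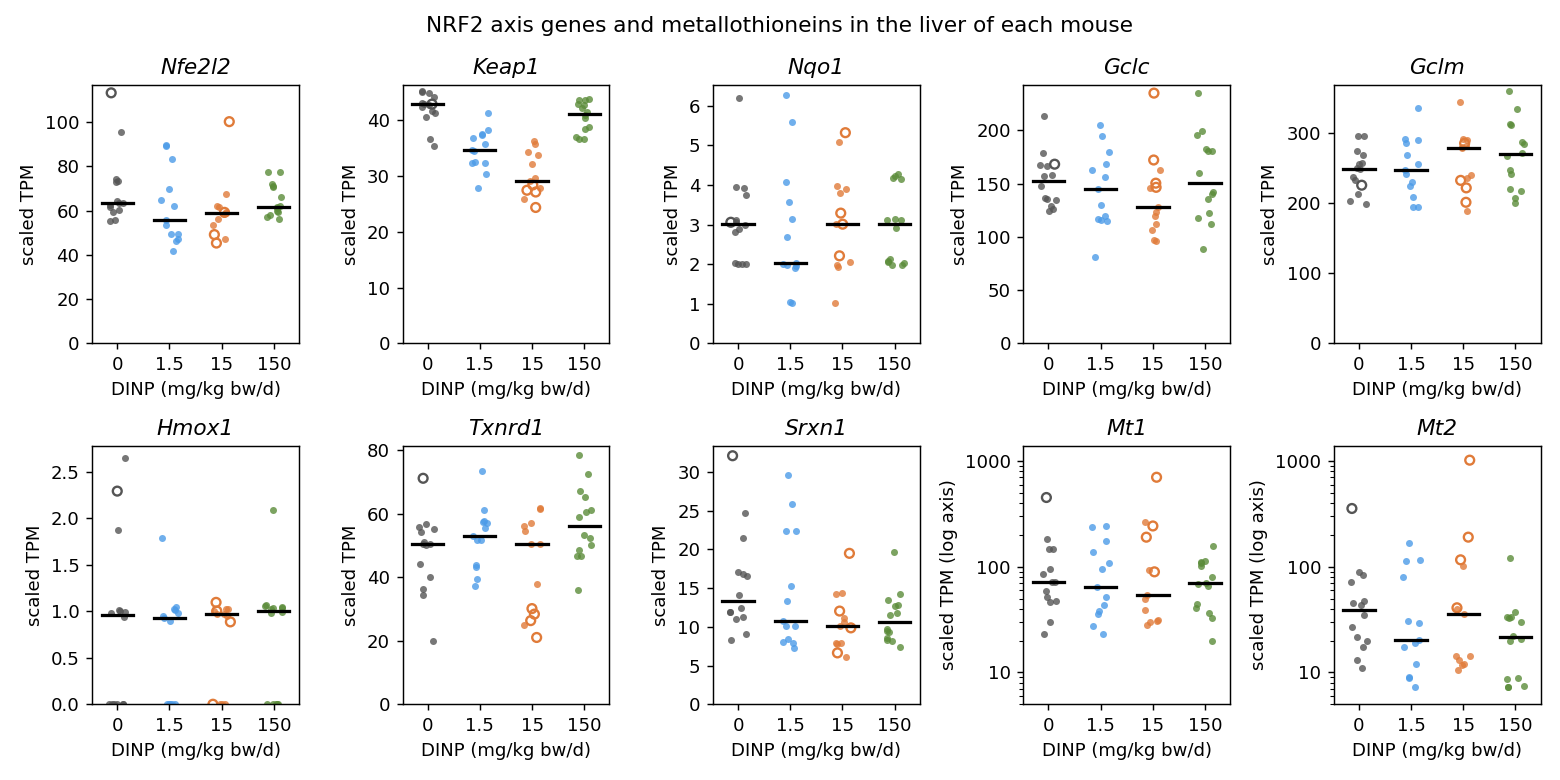
Scaled TPM of the 10 genes in each of the 54 mice (y axis, logarithmic for Mt1 and Mt2) by DINP dose (x axis, 0 is the placebo control). Points are mice, open circles are the 5 libraries that stood apart and black bars are medians; Keap1 was lowest at the middle dose, with a median of 29.0 against 42.7 in controls.

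Keap1, the gene of the NRF2 repressor (chr9:21229730-21239361, minus strand), was lower at the low and middle doses and close to control at the high dose. In controls it ranged from 35.3 to 45.2 with a median of 42.7. At the low dose it ranged from 27.8 to 41.1 with a median of 34.5. At the middle dose it ranged from 24.3 to 36.2 with a median of 29.0. Within that dose replicates 4 to 9 were at 24.3 to 28.4 and the other mice at 29.0 to 36.2. All 13 mice of either group were below the control median, and 7 of 13 at the low dose and 11 of 13 at the middle dose were below the lowest control mouse. At the high dose it ranged from 36.5 to 43.7 with a median of 41.1, inside the control range. The means were 42.0 ± 2.94 (SD, n = 14) in controls and 34.7 ± 3.61 (SD, n = 13), 30.1 ± 3.87 (SD, n = 13) and 40.6 ± 2.71 (SD, n = 14) with rising dose, or 82.5%, 71.7% and 96.6% of the control mean.

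Against control, Keap1 fell by 0.27 on the log2 scale at the low dose (SE 0.056, adjusted p = 0.00574). It was the only member called at this dose, where 1.2% of all tested rows were called and 0.525% were called lower. At the middle dose Keap1 fell by 0.47 (SE 0.056, adjusted p = 6.98e-08), and it was again the only member called, in a comparison that called 14.2% of all rows and 6.61% as lower. In the order of p-values over 11431 rows, Keap1 stood at place 19 at the low dose and at place 3 at the middle dose. At the high dose its log2 fold change was -0.05 (95% confidence interval -0.16 to 0.06, adjusted p = 0.755), and no member was called, against 2.17% of all rows; at an unadjusted p under 0.05 limma gave 1 member, Srxn1. With a further requirement of a log2 fold change beyond 0.5 no member was called in any of the 6 comparisons, where 0.367%, 3.72% and 0.84% of all rows passed from the low to the high dose against control, and 7.15%, 1.64% and 6.73% passed at low against middle, low against high and middle against high dose. Without the 5 libraries that stood apart, Keap1 was still called at the low dose (log2 fold change -0.27, adjusted p = 0.00385) and at the middle dose (-0.40, adjusted p = 2.52e-05).

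Between doses, Keap1 was lower at the middle than at the high dose in every mouse: all 13 values of the middle dose were below the lowest value of the high dose. The log2 fold change was -0.43 (SE 0.056, adjusted p = 2.06e-07), in a comparison with 9.85% of all rows called lower and 20% called in either direction. Keap1 was also lower at the low than at the high dose (log2 fold change -0.23, SE 0.056, adjusted p = 0.0107; 4.61% of all rows called). It was higher at the low than at the middle dose (0.20, SE 0.057, adjusted p = 0.00831; 21.4% of all rows called). With values divided by their sum in each library, the difference between the low and high doses was not called (-0.13, adjusted p = 0.279). The difference between the low and middle doses was not called without the 5 libraries that stood apart (0.13, adjusted p = 0.162). Replicates 4 and 9 at the middle dose (27.8 and 25.8), also among its lowest mice, stayed in that fit. A fit without replicates 4 to 9 together was not run. By dose, the mean levels were lowest in the middle group, then the low, the high and the control group, where the last pair did not differ beyond its spread. The SD of Keap1 between mice of a group was 0.13 on the log2 scale, smaller than in all but 0.726% of the tested rows.

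**Figure D2:**
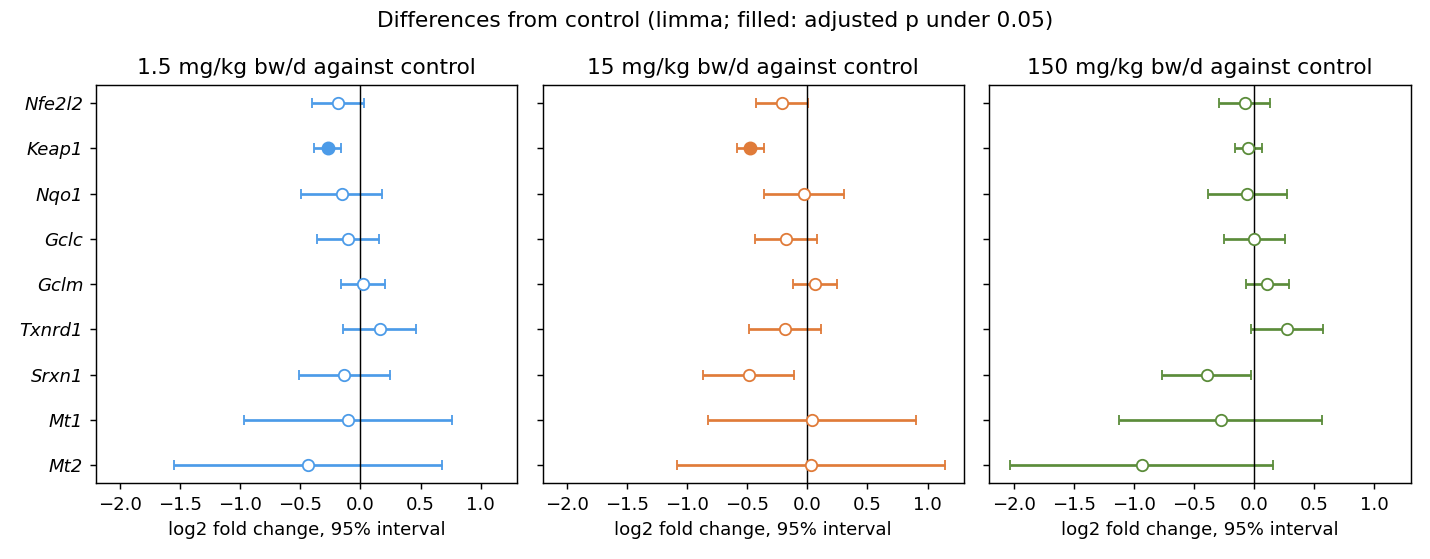
Log2 fold change of each tested gene against control (x axis) with its 95% confidence interval from limma, by dose (panels). Filled points had an adjusted p under 0.05: these are Keap1 at the low dose (-0.27) and at the middle dose (-0.47), while the intervals of Mt1 and Mt2 were the widest.

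Nfe2l2, the gene of NRF2 itself (chr2:75675513-75704641, minus strand), was not called in any of the 6 comparisons. It ranged from 55.1 to 113 with a median of 63.5 in controls, from 41.7 to 89.6 with a median of 55.9 at the low dose, from 45.3 to 100.1 with a median of 59.0 at the middle dose and from 56.3 to 77.6 with a median of 61.8 at the high dose. The groups overlapped, although 11 of 13 mice at the middle dose were below the control median. The log2 fold changes against control were -0.19 (adjusted p = 0.488), -0.21 (95% confidence interval -0.43 to 0.00, adjusted p = 0.194) and -0.08 (adjusted p = 0.81) with rising dose. The mice with the highest and second highest values of the series were control replicate 8 (113) and replicate 7 at the middle dose (100.1), both among the libraries that stood apart.

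Txnrd1 encodes cytosolic thioredoxin reductase, which keeps thioredoxin reduced with NADPH, at chr10:82833951-82897712 (plus strand, overlapping Eid3 on the same strand). It ranged from 19.7 to 71.1 with a median of 50.4 in controls, from 37.1 to 73.5 with a median of 52.8 at the low dose, from 21.0 to 61.8 with a median of 50.3 at the middle dose and from 35.9 to 78.4 with a median of 56.1 at the high dose. The mice at the middle dose fell apart: replicates 4 to 9 were at 21.0 to 37.8, and the other 7 mice were at 50.3 to 61.8. The same 6 mice had the lowest Keap1 values of that dose, at 24.3 to 28.4, and the others were at 29.0 to 36.2. Replicates 5 to 8 of these were among the libraries that stood apart. No DINP group was called against control (log2 fold changes of 0.16, -0.19 and 0.27 with adjusted p of 0.73, 0.457 and 0.411).

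Txnrd1 was lower at the middle than at the high dose (log2 fold change -0.46, SE 0.15, adjusted p = 0.0241), and 5 of 13 mice at the middle dose were below the lowest mouse at the high dose. With Keap1 it made 2 members called in that comparison. The difference without the 5 libraries that stood apart was -0.19 (adjusted p = 0.453), and at the middle dose the log2 fold change against control turned from -0.19 to 0.13 (adjusted p = 0.678). The call was also lost without replicate 6, 8 or 9 at the middle dose (adjusted p = 0.0527, 0.0645 and 0.0558).

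**Figure D3:**
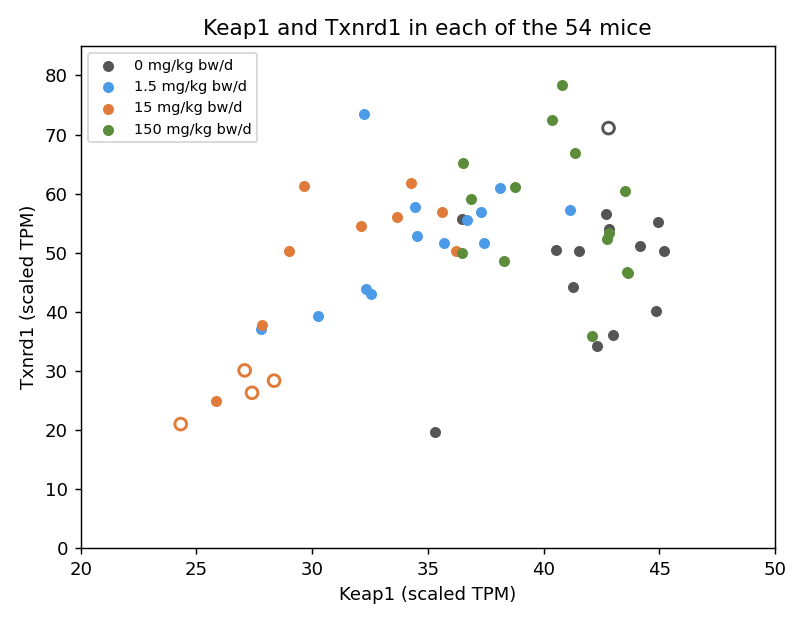
Scaled TPM of Keap1 (x axis, starting at 20) and Txnrd1 (y axis) in each of the 54 mice, coloured by DINP dose, with open circles for the 5 libraries that stood apart. Replicates 4 to 9 at the middle dose lie together at Keap1 of 24.3 to 28.4 and Txnrd1 of 21.0 to 37.8, and the other 7 mice of that dose lie at Txnrd1 of 50.3 to 61.8.

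Srxn1 encodes sulfiredoxin, which repairs over-oxidised peroxiredoxins, at chr2:152105516-152111376 (plus strand). It ranged from 8.31 to 32.1 with a median of 13.3 in controls, from 7.30 to 29.6 with a median of 10.8 at the low dose, from 6.12 to 19.5 with a median of 10.1 at the middle dose and from 7.43 to 19.7 with a median of 10.6 at the high dose. The ranges overlapped, and 10 of 13 mice at the middle dose and 11 of 14 at the high dose were below the control median. The log2 fold change at the middle dose was -0.49 (SE 0.19, p = 0.013, adjusted p = 0.0754) and did not pass the threshold. It passed without control replicate 1 (-0.54, adjusted p = 0.0412) or without replicate 7 at the middle dose (-0.56, adjusted p = 0.0371), and did not pass without the 5 libraries that stood apart (-0.46, adjusted p = 0.1785). At the low and high doses it was -0.13 (adjusted p = 0.836) and -0.40 (adjusted p = 0.315).

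Gclc (chr9:77754535-77794485, plus strand) and Gclm (chr3:122245557-122270732, plus strand) encode the catalytic and the modifier subunit of glutamate-cysteine ligase, the rate-limiting enzyme of glutathione synthesis. Gclc ranged from 125 to 214 with a median of 153 in controls, and its medians with rising dose were 145, 128 and 151. Of 13 mice at the middle dose 6 were below the lowest control mouse and 1, replicate 7, was at 235, above every other mouse of the series. As for Txnrd1, the mice of this dose fell apart: replicates 4 to 9 were at 146 to 235 and the others at 96.1 to 127.8. Gclm ranged from 198 to 296 with a median of 249 in controls, and its medians with rising dose were 247, 279 and 269. At the high dose 4 of 14 mice were above the highest control mouse. Neither subunit was called in any comparison: the log2 fold changes against control ran from -0.17 to 0.00 for Gclc (adjusted p from 0.404 to 0.999) and from 0.02 to 0.11 for Gclm (adjusted p from 0.629 to 0.962). The 95% confidence intervals at the high dose were -0.25 to 0.25 for Gclc and -0.07 to 0.29 for Gclm.

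Nqo1 (chr8:107388225-107403206, minus strand) encodes a quinone reductase that is a common marker of NRF2 activity, and Hmox1 (chr8:75093621-75100589, plus strand) encodes the inducible heme oxygenase. Nqo1 was low, from 1.02 to 6.26 over all mice, with group medians of 3.02, 2.02, 3.02 and 3.01 from control to the high dose. At such levels neighbouring values differ by about 1 step of the rounding, which was 0.764 to 1.11 scaled TPM in these libraries. Its log2 fold changes against control were -0.16, -0.03 and -0.06 (adjusted p = 0.766, 0.946 and 0.924). Hmox1 had a mean of 0.734 and was not tested. It was listed at 0 in 20 of 54 mice (6, 5, 4 and 5 mice from control to the high dose), and its highest value was 2.65, in a control mouse.

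Mt1 and Mt2 varied more between mice of a group than almost any other gene, and neither was called in any comparison. Mt1 ranged from 23.3 to 453 with a median of 71.8 in controls, from 23.1 to 243 with a median of 64.5 at the low dose, from 28.2 to 704 with a median of 53.9 at the middle dose and from 19.8 to 157 with a median of 69.8 at the high dose. Mt2 ranged from 11.0 to 356 with a median of 39.0 in controls, from 7.30 to 166 with a median of 20.2 at the low dose, from 10.6 to 1021 with a median of 35.8 at the middle dose and from 7.27 to 120.2 with a median of 21.5 at the high dose. Over all mice the highest value was 35.5 times the lowest for Mt1 and 140.5 times the lowest for Mt2. The SD between mice of a group was 1.16 on the log2 scale for Mt1 and 1.49 for Mt2, larger than in 98.3% and 99.1% of the tested rows. For Keap1 it was 0.13, and the remaining tested members lay between 0.23 for Gclm and 0.50 for Srxn1.

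Mt2 at the high dose had the lowest fold change of the members, and 13 of 14 mice were below the control median, 5 of them below the lowest control mouse. The log2 fold change was -0.94 with a 95% confidence interval from -2.03 to 0.15 (adjusted p = 0.448), so that neither no difference nor a fall of more than 1 on the log2 scale was outside the interval. At the low dose it was -0.44 (adjusted p = 0.819). For Mt1 it was -0.10 and -0.28 at the low and high doses (adjusted p = 0.958 and 0.831). Leaving out the 5 libraries that stood apart, among them control replicate 8, gave -0.69 for Mt2 and -0.09 for Mt1 at the high dose. The adjusted p were 0.49 and 0.945. At the low dose the values were -0.19 and 0.09 (adjusted p = 0.901 and 0.951). The means of Mt1 and Mt2 at the middle dose were 131% and 198% of the control means, but the log2 fold changes were 0.04 and 0.03 (adjusted p = 0.972 and 0.982). Replicate 7 of that dose was at 704 and 1021. High values were not limited to this mouse: replicates 4 to 9 were at 49.7 to 704 for Mt1 and 35.8 to 1021 for Mt2. The other mice of the dose were at 28.2 to 94.1 and 10.6 to 39.9, so that the ranges overlapped. Without the 5 libraries that stood apart the log2 fold changes at the middle dose were -0.44 and -0.66 (adjusted p = 0.606 and 0.505).

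The highest metallothionein levels were in replicate 7 at the middle dose (Mt1 704, Mt2 1021) and in control replicate 8 (Mt1 453, Mt2 356). In these mice the 7 hepatocyte markers summed to 29968 and 23883, the lowest in their groups, where the group medians were 40572 and 38578. The 14 markers of Kupffer cells and macrophages summed to 568 and 662, against group medians of 218 and 263, with Gpnmb at a median of 0 in both groups. The 8 markers of hepatic stellate cells summed to 420.1 and 412, against medians of 156 and 166. The 6 cholangiocyte markers summed to 255 and 153, against medians of 20.1 and 21.3. The 8 endothelial markers went the other way, with sums of 100.1 and 97.1 against medians of 109.7 and 114. In these mice, markers of macrophages, stellate cells and cholangiocytes were thus higher, and those of hepatocytes and endothelial cells lower. Replicate 6 at the middle dose, at place 3 for Mt2 (191), had hepatocyte and endothelial sums near the group medians (40509 and 108.5). Its macrophage, stellate cell and cholangiocyte sums were above them (283, 191 and 34.0). Replicate 5 of that dose, at place 6 (Mt2 116), went the other way for hepatocytes (43299) and macrophages (199). It did not for stellate cells, cholangiocytes and endothelial cells. The part of the markers in the metallothionein values was not tested. In bulk liver, fewer cells of a type and less RNA per cell cannot be told apart.

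**Figure D4:**
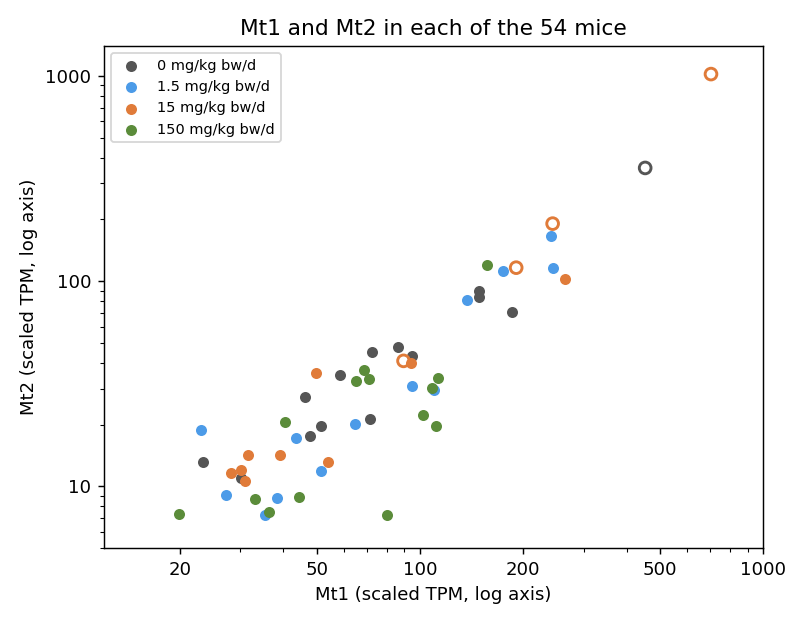
Scaled TPM of Mt1 (x axis) and Mt2 (y axis) in each of the 54 mice on logarithmic axes, coloured by DINP dose, with open circles for the 5 libraries that stood apart. The mice of all 4 groups lie along one band, from Mt2 of 7.27 to 1021, and the groups overlap along it.

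Co-variation of the members within groups was examined in the 54 mice after the mean of its group was taken from each log2 value. All genes of a mouse share a library and its scaling. Of 45 pairs, 20 had an adjusted p under 0.05 for Pearson's r in a permutation test within groups (2-sided, 100000 resamples), 19 of them with r above 0, and 15 of the 20 had the same sign of r in all 4 groups. How often pairs of other genes pass in these libraries was not determined, so the count is not a result about the members. Of the 20 pairs, 3 included Hmox1, which was at 0 in 20 of 54 mice. Mt1 and Mt2 were the closest pair (r = 0.92, rho = 0.90, both with p = 1e-05, the smallest value the resamples can give, and adjusted p = 0.00015 and 0.000225 over the 45 pairs). Their r was 0.96 in controls and 0.92, 0.97 and 0.73 with rising dose, and it was 0.89 without the 2 mice farthest from the median.

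Nfe2l2 and Srxn1 were the next pair (r = 0.79, rho = 0.66, adjusted p = 0.00015 and 0.000225, r = 0.75 without the 2 farthest mice). Their r was 0.88 in controls and 0.89, 0.75 and 0.29 with rising dose. Srxn1 also varied with Mt1 (r = 0.61, rho = 0.53, adjusted p = 0.00015 and 0.0015) and with Mt2 (r = 0.60, rho = 0.47, adjusted p = 0.000225 and 0.00666), and Nfe2l2 varied with Mt2 (r = 0.61, rho = 0.43, adjusted p = 0.00018 and 0.0108). These links were closest at the low dose, where r of Srxn1 was 0.91 with Mt1 and 0.94 with Mt2, and lower at the high dose, at 0.29 and 0.26. The difference in r between doses was not tested. The r of Srxn1 with Mt1 at the middle dose was 0.44 in all 13 mice and 0.06 in the 9 mice left without the libraries that stood apart. In the same way, r of Nfe2l2 with Mt2 at that dose went from 0.53 to 0.15. In controls, without replicate 8, r of Nfe2l2 went from 0.63 to 0.26 with Mt2 and from 0.88 to 0.80 with Srxn1. The control r of Srxn1 went from 0.67 to 0.46 with Mt1 and from 0.65 to 0.40 with Mt2.

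The glutathione subunits took different sides. Gclc rose with Mt2 (r = 0.51, rho = 0.50, adjusted p = 0.0007 and 0.00338, r = 0.49 without the 2 farthest mice), and r within groups was 0.90 at the middle dose and 0.10 at the high dose. At the middle dose Gclc also fell apart, with replicates 4 to 9 above all other mice of that dose, and the pooled r includes this split. In the same replicates Mt2 was at 35.8 to 1021, against 10.6 to 39.9 in the others. Without the 5 libraries that stood apart the pooled r was 0.37, and r at the middle dose was 0.70. Replicates 4 and 9 of the split stayed in (Gclc 163 and 146, Mt2 102 and 35.8), so these r values still include it. Gclm fell as Mt2 rose (r = -0.37, rho = -0.38, adjusted p = 0.0186 and 0.0252), the only pair of the 20 with r below 0. For this pair r was -0.02 at the high dose. Without the libraries that stood apart it was -0.26, and at the middle dose it went from -0.53 to -0.15. Gclc and Gclm themselves had r = 0.09 (adjusted p = 0.609). Keap1 and Nfe2l2 had r = 0.22 (adjusted p = 0.218). Of the 20 pairs, 4 included Txnrd1, whose values at the middle dose fell apart as described, and no pooled r is given for these. Between Keap1 and Txnrd1 r was 0.46 in controls, 0.63 at the low dose and -0.25 at the high dose.

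**Figure D5:**
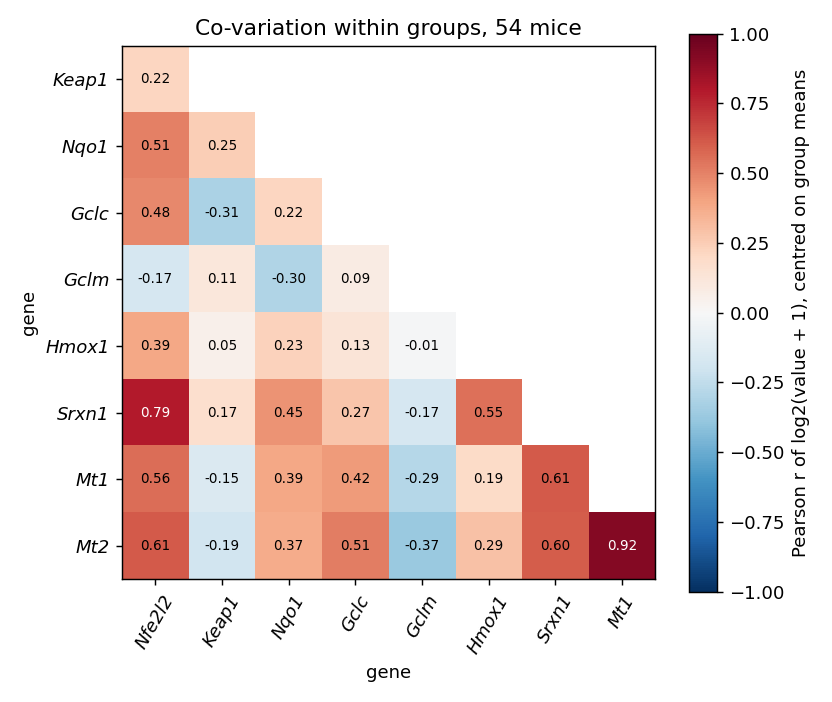
Pearson's r of log2(value + 1), centred on the group means, for the 36 pairs of 9 genes over 54 mice (colour scale from -1 in blue to 1 in red, value in each cell). Mt1 with Mt2 (0.92) and Nfe2l2 with Srxn1 (0.79) stand out. Txnrd1 is left out because its values at the middle dose fell apart. The cells of Gclc include the split of its own values at that dose.

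Over all tested rows, the genes whose level most resembled that of each member within groups were named as a description, with r over the same 54 mice. Nfe2l2 was followed most closely by Anxa2 (0.86), Jun (0.85) and Col1a2 (0.84), and Srxn1 by Atp9a (0.86), Haus8 (0.85) and Jun (0.85), so that the stress-responsive factor gene Jun was shared. Mt1 came closest to Mt2, 2010003K11Rik (0.80) and Tmem176a (0.79). Beside Mt1, Mt2 came closest to Krt8 (0.84), a keratin of hepatocytes and bile duct cells, and to Lcn2 (0.81), an acute phase gene, and without the 5 libraries that stood apart these were 0.71 and 0.74. Keap1 came closest to Rpl11 (0.68), Nudt3 (0.67) and Iba57 (0.65), Nqo1 to Ppp1r9b (0.65), Slc39a4 (0.60) and Aldh1b1 (0.59), and Txnrd1 to Gm7816 (0.87), Psmc3 (0.80) and Arglu1 (0.79). Gclc came closest to Gnas (0.71), Tlcd4 (0.71) and Ephx1 (0.69), the last of which encodes microsomal epoxide hydrolase, and Gclm to Ugt2b36 (0.70), ND6 (0.70) and Mfhas1 (0.68). The r values of Txnrd1 and Gclc include the split of their own values at the middle dose. Without the 5 libraries that stood apart they were 0.83, 0.73 and 0.70 for Txnrd1 and 0.75, 0.73 and 0.69 for Gclc. Replicates 4 and 9 of the split stayed in that set of mice.

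Of 40 other NRF2 target genes listed, 35 were tested. At the low and at the high dose none was called by limma, with 4 and 6 at an unadjusted p under 0.05. At the middle dose 5 were called higher and 1 lower (17.1% of the list, against 14.2% of all rows), and the median log2 fold change of the list was 0.06, against -0.00 over all rows. The called genes were Gsta4, a glutathione transferase for lipid aldehydes (0.86, adjusted p = 0.000382), Txn1, the thioredoxin reduced by TXNRD1 (0.53, adjusted p = 0.000296), Esd (0.28, adjusted p = 0.0016), Htatip2 (0.51, adjusted p = 0.00429) and Cyp2a5, a liver cytochrome P450 (0.75, adjusted p = 0.007), and, lower, the peroxiredoxin gene Prdx1 (-0.18, adjusted p = 0.0315). Without the libraries that stood apart, Cyp2a5, Gsta4 and Txn1 were called higher and Gstm4 and Prdx1 lower, when 5.69% of all rows were called. Of 16 tested partners and regulators of NRF2 none was called at any dose, with 2, 2 and 3 at an unadjusted p under 0.05 with rising dose. When the libraries that stood apart were left out, Gsk3b, a kinase that marks NRF2 for degradation, was called higher at the low dose (0.58, adjusted p = 0.0351) and Nfe2l1, a relative of NRF2, at the high dose (0.37, adjusted p = 0.0183). Of all rows, 2.04% and 2.86% were called in these comparisons.

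Genes of glutathione, thioredoxin and peroxide metabolism were mostly not called. Of 30 tested, none was called by limma at the low dose, with 6 at an unadjusted p under 0.05, whereas Glrx2 and Oplah were called higher (0.26 and 0.34, both with adjusted p = 0.0472) and Mgst1 lower (-0.45, adjusted p = 0.0473) when the libraries that stood apart were left out. Of all rows, 2.04% were called in that fit. At the middle dose the glutaredoxins Glrx3 (0.36, adjusted p = 0.000447) and Glrx2 (0.25, adjusted p = 0.0201), the copper-zinc superoxide dismutase Sod1 (0.38, adjusted p = 0.000883) and Chac2 (0.68, adjusted p = 0.00266), an enzyme that degrades glutathione, rose, and the extracellular superoxide dismutase Sod3 fell (-0.38, adjusted p = 0.0458), together 16.7% of the list against 14.2% of all rows. Of these, Glrx3 and Sod1 were called without the 5 libraries that stood apart, when 5.69% of all rows were called. At the high dose Txnip, the thioredoxin-interacting protein gene, rose from 54.1 ± 8.08 (SD, n = 14) in controls to 123 ± 51.0 (SD, n = 14), a log2 fold change of 1.06 (SE 0.16, adjusted p = 2.42e-05), and Oplah, an enzyme of the glutathione cycle, rose by 0.44 (adjusted p = 0.0059). Together they were 6.67% of the list, against 2.17% of all rows.

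Among genes of zinc and copper handling, 26 were tested. Cp, the copper carrier ceruloplasmin, was called at the low dose (0.26, adjusted p = 0.0426), or 3.85% of the list against 1.2% of all rows. None was called at the high dose, with 3 at an unadjusted p under 0.05 in limma. In the middle-dose group 3 rose and 3 fell, or 23.1% of the list against 14.2% of all rows. The copper chaperone gene Cox17 rose by 0.78 (adjusted p = 1.79e-05) and the copper importer gene Slc31a1 by 0.21 (adjusted p = 0.0344), whereas the zinc transporter genes Slc39a11 and Slc39a7 fell by 0.40 (adjusted p = 0.000665) and by 0.52 (adjusted p = 0.00226). Cox17, Slc39a11 and Slc39a9 were called without the 5 libraries that stood apart, when 5.69% of all rows were called.

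Of 18 tested genes of heme synthesis and breakdown, 2 rose at the low dose: Blvra, biliverdin reductase (0.55, adjusted p = 0.00387), and Hmox2, the constitutive heme oxygenase (0.32, adjusted p = 0.046), or 11.1% of the list against 1.2% of all rows. In the middle-dose group 4 rose and 1 fell (27.8% of the list, against 14.2% of all rows). Those that rose were Blvra (0.46, adjusted p = 0.00136), Pgrmc1 (0.63, adjusted p = 0.000754), Alad (0.38, adjusted p = 0.00158) and Uros (0.50, adjusted p = 0.00589). The heme transporter gene Slc48a1 was lower (-0.37, adjusted p = 0.0079). Without the 5 libraries that stood apart Blvra was called higher and Hpx lower, when 5.69% of all rows were called. At the high dose none was called by limma, with 5 at an unadjusted p under 0.05, and Hpx, the heme carrier hemopexin, was called lower when the libraries that stood apart were left out (-0.45, adjusted p = 0.0349, with 2.86% of all rows called).

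Lists of genes that respond to glucocorticoids and fasting, and to IL6 and the acute phase, were examined because both stimuli raise metallothioneins. At the low and high doses none of 19 and none of 27 tested genes was called by limma (2 and 3 of the first and 3 and 6 of the second at an unadjusted p under 0.05). At the middle dose Tdo2 rose by 0.36 (adjusted p = 0.00894), while Ddit4 (-0.70, adjusted p = 0.007) and Klf9 (-0.40, adjusted p = 0.0375) fell. Of the acute phase list, Itih4 (0.40, adjusted p = 0.00102) and Serpina3n (0.33, adjusted p = 0.00775) rose and Stat3 (-0.32, adjusted p = 0.0125) and Fgb (-0.27, adjusted p = 0.0361) fell. Tdo2 and Zbtb16 of the first list and Itih4 of the second were called without the 5 libraries that stood apart, when 5.69% of all rows were called. With all libraries, 15.8% of the first and 14.8% of the second list were called at the middle dose, against 14.2% of all rows. At the same dose 1 of 13 tested macrophage markers, Csf1r (-0.60, adjusted p = 0.0114), and 1 of 8 endothelial markers, Pecam1 (-0.52, adjusted p = 0.000867), were lower, and 1 of 7 hepatocyte markers, Ttr, was higher (0.42, adjusted p = 0.0231). The median log2 fold changes of these marker lists were -0.15, -0.09 and 0.14. None of these 3 genes was called without the libraries that stood apart (adjusted p = 0.0924, 0.0754 and 0.333), when the hepatocyte marker Ass1 was called higher (0.53, adjusted p = 0.0427). Of 9 markers of hepatocytes near the central vein, Rgn was called higher (0.38, adjusted p = 0.0123). Of 8 markers of hepatocytes near the portal vein, Pigr (0.68, adjusted p = 0.000739) and Hsd17b13 (0.39, adjusted p = 0.0278) were called higher. Among these, only Pigr was called without the libraries that stood apart (0.84, adjusted p = 1.46e-06). The part of these markers in the results at the middle dose was not tested.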

How the data were processed

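Total RNA from the liver medial lobe of 54 mice was sequenced by the authors as QuantSeq 3′ mRNA-Seq libraries, mapped to GRCm38 and quantified in the nf-core/rnaseq pipeline (STAR, RSEM and Salmon). The deposited values are a scaled signal. The table is described as TPM, and its values have the form of TPM rounded to whole numbers (sums of 948342 to 980641 in each sample, tolerance 0.01 for a whole number) and divided by a size factor, so that 1 unit of TPM became a step of 0.764 to 1.11; this form was inferred from the values, and the steps behind it are not given in the sources used here. The table keeps no sequencing depth, so no counting error of single values can be given, and no test for counts was run. Reads from the 3′ end divided by transcript length make levels of different genes hard to compare, and each gene was compared only with itself.

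Samples were grouped by their labels. Rows with a mean of at least 1 (11431 of 20162; 17 symbols were on more than 1 row and all rows were kept) were tested on log2(value + 1) with limma 3.58.1 in R 4.3.3 (lmFit and eBayes with a trend), with all 4 groups in 1 fit, and p-values were adjusted by Benjamini and Hochberg over all tested rows of a comparison. A call is an adjusted p under 0.05. The fit and the permutation test were tested on simulated data. Pairs of members were compared by Pearson's r and Spearman's rho with 100000 permutations within groups, in Python 3.11.15 with numpy 2.4.6. Each DINP group is set against the same control mice, so that the comparisons with control share samples.

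All members were named in every comparison, together with at most 4 called genes per list and comparison with the smallest adjusted p, and with the 3 genes most like each member. Called genes outside this rule that are named here (Cyp2a5, Prdx1, Sod3, Slc48a1, Zbtb16, Gstm4, Slc39a9, Hpx, Gsk3b, Nfe2l1, Mgst1 and Ass1 among them) were chosen after their values were seen. The members and lists were chosen with earlier results of these data known. Libraries were set apart by their median correlation with the other libraries below the lower quartile minus 1.5 times the interquartile range, a choice made after seeing the data. Positions are from GENCODE M21, and promoter windows are from RefSeq on GRCm38.p6. Alternatives were other pseudocounts, filters, scalings, weights and sets of samples, and the replicate number as a block.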

Additional observations from a re-analysis of the deposited data

How the results depend on the processing

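Of 2284 alternative values for the members, 2174 were classed as unchanged. For a log2 fold change this meant the same direction and side of the threshold. For a count of members or pairs called it meant a count equal or close to the one given above. Most of the fold changes were of members that were not called. The fall of Keap1 at the low and at the middle dose against control and its difference between the middle and high doses kept their calls in all 114 alternatives, with log2 fold changes of -0.29 to -0.25, -0.53 to -0.40 and -0.45 to -0.36. None of these alternatives left out replicates 4 to 9 at the middle dose together. Requiring a log2 fold change beyond 0.5 left 0 members called in each of the 5 comparisons that had any. With values divided by their sum in each library (sum scaling), the count of members called fell to 0 for low against high dose and to 1 for middle against high dose; it was also 1 for the latter with array quality weights, with only the 2 groups compared and without the 5 libraries that stood apart. For low against middle dose it fell to 0 with only the 2 groups compared and without the 5 libraries. Without single libraries the count was 1 to 2 for the middle dose against control and 1 to 2 for middle against high dose.

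Directions reversed only for values that were not called, all with an adjusted p of at least 0.457 in the reversed setting, and the cause was not tested. With sum scaling, log2 fold changes were -0.0165 for Mt1 and -0.023 for Mt2 at the middle dose against control, -0.092 for Gclc at the high dose against control, and 0.011 and 0.0043 for Gclm at low against middle and against high dose. With quantile normalization they were -0.021 (Gclm), -0.0305 (Mt1) and -0.00215 (Mt2) at the middle dose against control, -0.045 for Gclc at the high dose against control and 0.038 for Gclm at low against middle dose. With array quality weights Mt1 was 0.019 at the low and -0.25 at the middle dose against control, 0.27 at low against middle dose and -0.063 at middle against high dose, and Mt2 was -0.37 at the middle dose against control and 0.069 at low against middle dose. Without the 5 libraries Mt1 was 0.0897 at the low and -0.44 at the middle dose against control, 0.53 at low against middle dose and -0.35 at middle against high dose; Mt2 was -0.66 at the middle dose against control and 0.47 at low against middle dose; Txnrd1 was 0.13 at the middle dose against control, and Nqo1 and Gclm were -0.0302 and 0.0121 at middle against high dose. With the replicate number as a block, Mt1 and Mt2 were -0.028 and -0.055 at the middle dose against control, and no call of a member changed.

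Without single libraries, values that crossed 0 ranged from -0.047 to 0.0597 (Gclc, high dose against control), -0.016 to 0.049 (Gclm, low dose against control), -0.28 to 0.12 (Mt1, low against middle dose), -0.24 to 0.0897 (Mt1, low dose against control), -0.22 to 0.23 (Mt1, middle dose against control), -0.36 to 0.27 (Mt2, middle dose against control), -0.022 to 0.089 (Nfe2l2, low against middle dose), -0.027 to 0.11 (Nqo1, middle against high dose), -0.083 to 0.054 (Nqo1, middle dose against control) and -0.091 to 0.0087 (Nqo1, high dose against control). The replicate numbers did not pair the mice: for the 79 pairs of mice sharing a number, the mean correlation of deviations was -0.0025, and 12.7% were above 0.1.

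The background counts moved more than the members. At the low dose against control 137 rows were called, against 59 without a filter, 67 with the replicate block, 82 with sum scaling, 297 with array quality weights, 281 with only these groups, 232 without the 5 libraries, and as few as 60 without replicate 8 at the low dose. Without the 5 libraries 647 rows in place of 1621 were called at the middle dose against control, 1071 in place of 2449 at low against middle dose and 1187 in place of 2282 at middle against high dose. With array quality weights it was 488 in place of 248 at the high dose against control and 1505 at low against middle dose; with only the groups compared it was 1067 at the middle and 373 at the high dose against control. With sum scaling, 801 in place of 527 rows were called at low against high dose. The split into higher and lower calls followed the scaling: 865 and 756 at the middle dose against control became 563 and 944 with sum scaling; 170 and 78 at the high dose became 82 and 266 with sum scaling and 146 and 128 with quantile normalization; 1204 and 1245 at low against middle dose became 1492 and 884; 235 and 292 at low against high dose became 661 and 140; and 1156 and 1126 at middle against high dose became 1389 and 817. The co-variation gave 20 pairs, and 20 to 26 under other pseudocounts and scalings.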
